A study of Homo sapiens with 24 samples.

Results

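P12-ICHIKAWA is an established human line of acute lymphoblastic leukaemia of the T lineage (T-ALL), and its expression with solvent alone was set against that of 3 other T-ALL lines, TALL-1, SUPT11 and RPMI-8402. The P12-ICHIKAWA group was the 3 arrays whose labels name this line and DMSO, out of 24 arrays in the series. The other groups were the 3 DMSO arrays each of TALL-1, SUPT11 and RPMI-8402. All 12 had 16 h in 0.5% DMSO before RNA was taken, so DMSO is common to every group compared. The remaining 12 arrays were of the same 4 lines, 3 each, treated for the same time with NVS-ZP7-3, a compound for which the labels give no dose and no target. No genotype, age or allele is given for any line, each line is 1 established culture line, and the labels do not say whether the 3 arrays of a group were separate cultures. P-values therefore measure only the spread between these arrays, which may be technical. Values are on the deposited log2 scale, where probe sets without signal lie at a floor of 2.18. A difference against a group at that floor is a lower bound. Arrays at the floor have almost no spread, which lowers the shared error, so p-values of such genes can be too small. Bulk RNA cannot tell fewer expressing cells apart from less RNA per cell.

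T-ALL cells resemble thymocytes held at a stage of T cell development. Cortical thymocytes carry CD1 proteins, which present lipid antigens, and use the RAG1 and RAG2 recombinase to assemble their antigen receptor genes. LMO2 is a bridging protein of blood stem cell transcription complexes that is normally switched off in the T lineage and acts as an oncogene in T-ALL. Many T-ALL lines also depend on Notch signalling, in which a cleaved receptor joins RBPJ and a MAML coactivator to turn on genes such as HES1, DTX1, NRARP and MYC.

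Arrays of a line were much closer to each other than to arrays of another line. Pearson's r across genes, which are not independent replicates, was 0.9932 to 0.9978 within a line. P12-ICHIKAWA correlated at 0.8553 to 0.8647 with RPMI-8402, at 0.8407 to 0.8466 with TALL-1 and at 0.7474 to 0.7584 with SUPT11. RPMI-8402 DMSO replicate 3 stood apart from its sister arrays, with 63 genes at least 2 above both on the log2 scale and blood cell transcripts high (HBB, a haemoglobin chain, at 14.65, with 9.42 and 2.32 on replicates 1 and 2). TALL-1 DMSO replicate 2 had 23 such genes and P12-ICHIKAWA replicate 1 had 9. The counts of genes that set P12-ICHIKAWA apart from all 3 lines are given with and without RPMI-8402 replicate 3. So are the differences of PRF1 and HCLS1 from RPMI-8402. For some other genes only the value on that replicate is shown.

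The cells carried the T lineage label. CD3D, a chain of the T cell receptor complex, averaged 14.66 ± 0.067 in P12-ICHIKAWA, against 14.88 ± 0.014 in TALL-1, 14.17 ± 0.054 in SUPT11 and 14.64 ± 0.041 in RPMI-8402 (SD, n = 3 each). BCL11B, a transcription factor of T cell commitment, averaged 14.26 in P12-ICHIKAWA and 14.11 to 14.33 in the other lines. Neither was called in any comparison. CD2, a T cell adhesion receptor, was the T lineage marker that P12-ICHIKAWA lacked, at 2.22, 2.19 and 2.19 against 11.37 ± 0.12 in TALL-1, 7.56 ± 0.12 in SUPT11 and 8.81 ± 0.098 in RPMI-8402. Its array mean over 10 myeloid markers was 2.30 to 2.40 and over 6 erythroid markers 2.18 to 2.20, both near the floor, with HBB at 2.18 to 2.29.

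A gene was called where limma's adjusted p (Benjamini-Hochberg over 10442 tested genes) was below 0.05 and the log2 difference was at least 1. Against the mean of the other 3 lines, each line weighing the same, 1148 genes (11.0% of those tested) were higher in P12-ICHIKAWA and 1615 (15.5%) were lower. The comparisons with single lines share the P12-ICHIKAWA arrays. Against TALL-1, 1393 genes were higher (13.3%) and 1323 lower (12.7%). Against SUPT11, 1743 were higher (16.7%) and 1983 lower (19.0%), the most of the 3. Against RPMI-8402, 977 were higher (9.36%) and 1340 lower (12.8%), the fewest in total. Which direction held more calls depended on the scaling of the arrays. With quantile normalization the counts were 1361 higher and 1168 lower than RPMI-8402 (53.8% of calls higher, against 42.2% as deposited), 2085 and 1753 than SUPT11, 1215 and 1472 than TALL-1, and 1274 and 1437 than the mean. A gene was counted as apart from all 3 lines when it was called the same way against each and all 3 P12-ICHIKAWA arrays lay outside the range of the 9 others. This held for 263 genes higher (2.52%) and 283 lower (2.71%), and with quantile normalization for 283 higher and 240 lower. Without RPMI-8402 replicate 3 the counts were 260 and 285, of which 255 and 279 were among the genes counted with it. By the same rule TALL-1 had 418 genes higher and 532 lower than all other lines, SUPT11 1098 and 809, and RPMI-8402 509 and 282.

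CD1 antigen genes were higher in P12-ICHIKAWA than in the other lines as a family, with TALL-1 sharing CD1A and CD1D. All 5 tested members were called higher than the mean of the other lines (11.0% of all genes were), with a median difference of 7.04 against 0.00293 over all genes tested. CD1E, CD1B and CD1C reached log2 4 on 3 arrays, the filter for testing, only through P12-ICHIKAWA, so they could not be called lower. CD1E and CD1B are also markers of this comparison, chosen with earlier results of these data known. CD1E, which helps load lipids onto the other CD1 proteins, stood at 13.29, 13.48 and 13.41 in P12-ICHIKAWA, against 2.99, 2.20 and 2.27 in TALL-1 and 2.18 on every SUPT11 and RPMI-8402 array. The difference of 11.11 ± 0.14 (SE) was the widest of any gene tested, and no array of another line came near the P12-ICHIKAWA arrays (limma adjusted p = 1.39e-13). CD1B, a lipid-presenting molecule of cortical thymocytes and dendritic cells, stood at 13.44, 13.41 and 13.37, against 4.22, 2.69 and 4.0 in TALL-1 and the floor elsewhere (difference 10.74 ± 0.25). CD1C was lower than these in P12-ICHIKAWA, at 8.97, 9.59 and 9.12, and at the floor on all 9 other arrays.

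CD1A, the classical marker of cortical thymocytes, did not set P12-ICHIKAWA apart. It stood at 10.70, 10.94 and 11.03 in P12-ICHIKAWA and at 10.65, 10.23 and 10.40 in TALL-1, with both others at the floor. The difference from TALL-1 was 0.46 ± 0.11 (limma adjusted p = 0.0026), below the size needed for a call. CD1D, which presents lipids to NKT cells, stood at 7.38, 7.46 and 7.38 in P12-ICHIKAWA and at 7.99, 6.83 and 7.83 in TALL-1, so these arrays overlapped. SUPT11 and RPMI-8402 lay at 2.71 to 2.88.

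**Figure D1:**
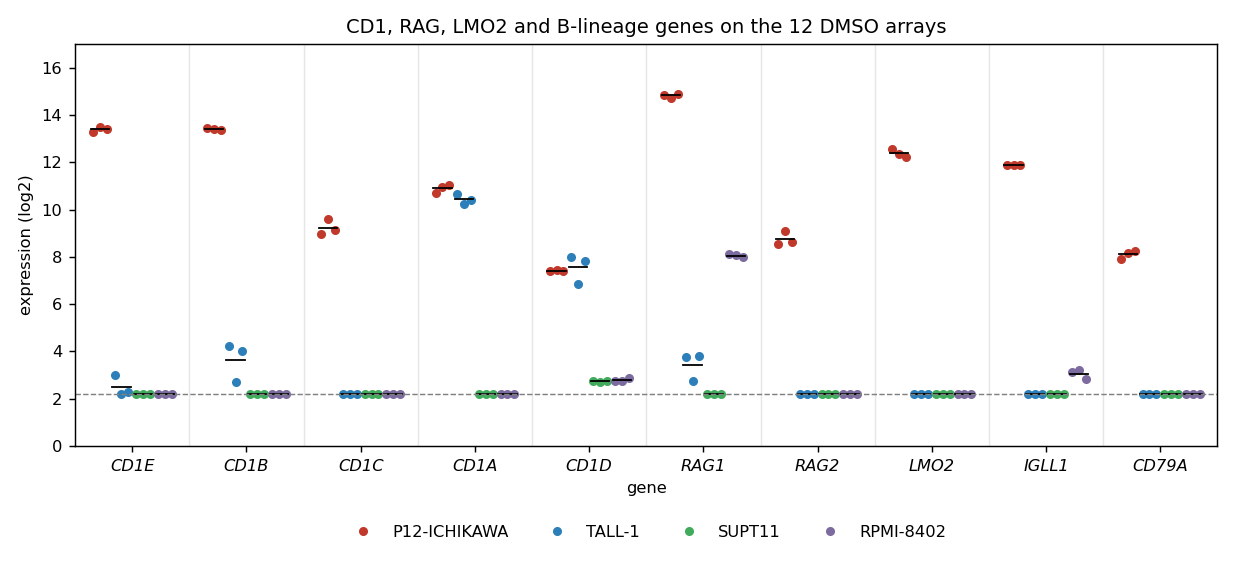
Log2 expression of 10 genes on the 12 DMSO arrays, with 1 point per array, a bar at each line's mean of 3 arrays and a dashed line at the floor of 2.18. CD1E, CD1B, CD1C, RAG1, RAG2, LMO2, IGLL1 and CD79A lie highest in P12-ICHIKAWA, while CD1A and CD1D reach similar levels in TALL-1.

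RAG1 and RAG2, which together cut DNA at antigen receptor genes, were both higher in P12-ICHIKAWA than in every other line. RAG1 stood at 14.86, 14.72 and 14.90 in P12-ICHIKAWA, against 3.77, 2.75 and 3.79 in TALL-1, 2.18 in SUPT11 and 8.10, 8.07 and 7.98 in RPMI-8402 (difference from the mean 10.27 ± 0.18; limma adjusted p = 2.63e-12). RPMI-8402 was the only other line with clear RAG1 signal, and it was 6.77 ± 0.23 lower than P12-ICHIKAWA. RAG2 stood at 8.54, 9.08 and 8.63 in P12-ICHIKAWA and at the floor on all 9 other arrays. DNTT, the polymerase that adds bases at the joints which RAG makes, went the other way. It stood at 4.88, 3.49 and 2.96 in P12-ICHIKAWA, against 13.03 ± 0.18 in TALL-1, 2.18 in SUPT11 and 14.89 ± 0.017 in RPMI-8402 (SD, n = 3 each). P12-ICHIKAWA was thus lower than TALL-1 and RPMI-8402 and 1.60 ± 0.37 higher than SUPT11. Of the 11 tested genes of CD3 chains, pre-TCR and recombination, 3 were called higher than the mean and 1 lower (11.0% and 15.5% of all genes). ADA was the third higher one, and it lay at the floor in SUPT11 alone.

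LMO2 stood at 12.54, 12.35 and 12.23 in P12-ICHIKAWA and at the floor on all 9 other arrays (difference at least 10.19 ± 0.055; limma adjusted p = 5.53e-16), and both of its probe sets differed by more than 1 in the same direction. The other oncogenic transcription factors of T-ALL divided the lines differently. Of the 8 tested, 3 were called higher than the mean of the other lines (11.0% of all genes) and 5 lower (15.5%). MYCN, a MYC family member, was higher at 9.89, 9.74 and 9.62 in P12-ICHIKAWA than in TALL-1 (2.26) and SUPT11 (2.24), but 2.70 ± 0.069 lower than in RPMI-8402 (12.44). MYB averaged 14.81 in P12-ICHIKAWA, and also 14.81 in TALL-1 and 14.84 in RPMI-8402, so that its call came from SUPT11 at 10.21. The 5 lower ones were high in RPMI-8402 or in RPMI-8402 and SUPT11. TAL1, the stem cell leukaemia factor that binds LMO2 in the same complex, was at 2.18 in P12-ICHIKAWA, TALL-1 and SUPT11 and at 12.50 ± 0.18 in RPMI-8402. LYL1, its close relative, had the same pattern, with 7.86 ± 0.14 in RPMI-8402. MEF2C was at the floor in P12-ICHIKAWA and TALL-1, and averaged 8.55 in SUPT11 and 11.04 in RPMI-8402. TLX1 and TLX3, homeobox genes of cortical T-ALL, were at the floor on all arrays.

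Genes of early progenitors lay at or near the floor in P12-ICHIKAWA. None of the 9 tested members was called higher than the mean of the other lines (11.0% of all genes were) and 8 were lower (15.5% of all genes). Of 15 members with a probe set, those averaging log2 4 or more numbered 1 in P12-ICHIKAWA, 1 in TALL-1, 3 in SUPT11 and 7 in RPMI-8402. Tested members at the floor in P12-ICHIKAWA passed the filter only through other lines, so they could not be called higher. The number lower was 6 against RPMI-8402, 3 against SUPT11 and 0 against TALL-1 (12.8%, 19.0% and 12.7% of all genes). CD34, a stem cell surface protein, HHEX and GATA2, both stem cell transcription factors, were at 2.18 in P12-ICHIKAWA, TALL-1 and SUPT11 and at 12.77, 12.68 and 11.02 in RPMI-8402. IGFBP7 was the member not called, at 4.19 in P12-ICHIKAWA and 3.30 to 4.63 elsewhere. HOXC4, a homeobox gene outside the HOXA cluster, stood at 8.97, 8.78 and 8.74 in P12-ICHIKAWA and at 2.18 to 2.24 on the other 9 arrays.

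Of the 12 tested genes between LMO2 and RAG1 on the short arm of chromosome 11, 8 were called lower in P12-ICHIKAWA than the mean of the other lines (15.5% of all genes) and none higher, while LMO2, RAG1 and RAG2 at both ends were higher. This stretch was looked at after the values were seen, and its gene order comes from RefSeq. All 12 had a difference from the mean below 0, which 49.77% of all genes tested had, and 3 were apart from all lines. The median difference was -1.22, and the range ran over -9.28 to -0.23. TRIM44, a tripartite motif protein, stood at 2.40, 2.40 and 2.32 in P12-ICHIKAWA, against 11.55, 11.30 and 11.33 in TALL-1, 11.61, 11.60 and 11.54 in SUPT11, and 12.05, 12.02 and 11.93 in RPMI-8402. CD44, the hyaluronan receptor, stood at 5.43, 6.32 and 5.49, against 9.90 ± 0.099 in TALL-1, 14.32 ± 0.039 in SUPT11 and 13.09 ± 0.061 in RPMI-8402. The P12-ICHIKAWA arrays lay below all others for both genes.

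The other called genes differed by less. TRAF6, a ubiquitin ligase of inflammatory signalling, averaged 7.64 ± 0.18 in P12-ICHIKAWA, against 8.88 ± 0.081 in TALL-1, 8.92 ± 0.12 in SUPT11 and 9.38 ± 0.19 in RPMI-8402 (difference -1.42 ± 0.095). CAT, catalase, differed by -1.41 ± 0.057, PDHX, a pyruvate dehydrogenase subunit, by -1.01 and COMMD9 by -1.02. CAPRIN1, next to LMO2, differed by -0.23, NAT10 by -0.52, APIP by -0.57 and ABTB2 by -0.89, and none of these 4 was called. FJX1 and LDLRAD3, both called, were at the floor in all lines but RPMI-8402, so P12-ICHIKAWA did not differ there from TALL-1 or SUPT11. CD59, on the other side of LMO2, was 4.44 ± 0.047 higher than the mean but not higher than RPMI-8402. Deletions next to LMO2 are known as a class of lesion in T-ALL. DNA was not measured here, and whether copy number moves with these values was not tested.

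**Figure D2:**
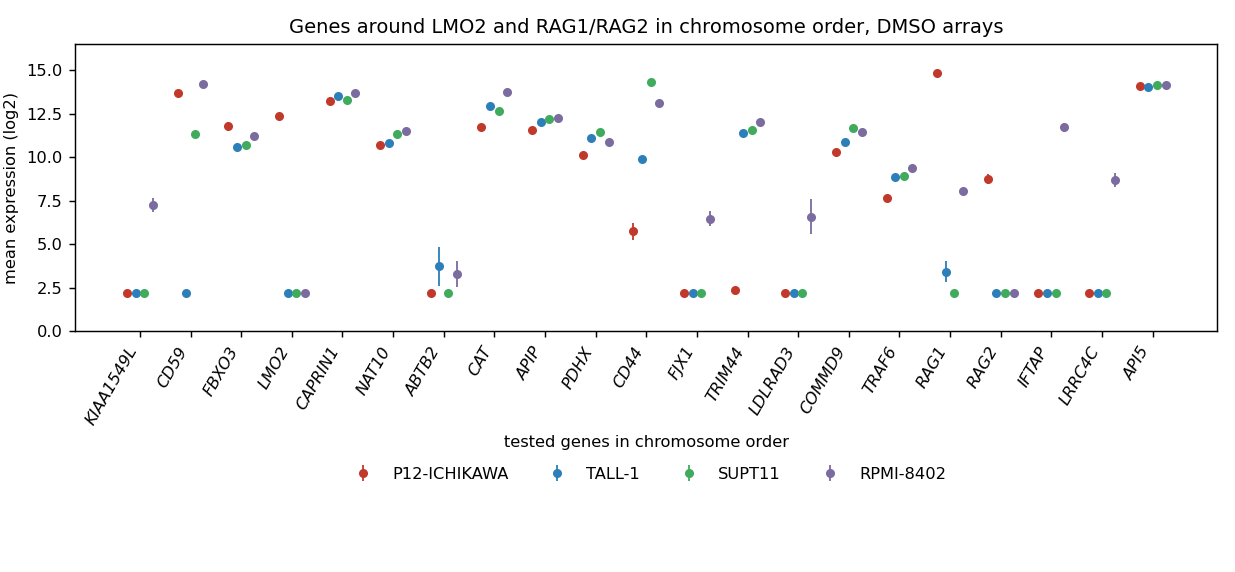
Mean log2 expression of the 21 tested genes from 3 genes before LMO2 to 3 genes after RAG2, in chromosome order, with 1 point per line (mean of 3 DMSO arrays) and SD bars. P12-ICHIKAWA points lie above those of the other lines at LMO2, RAG1 and RAG2 and lowest at TRIM44, CD44 and TRAF6.

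For CDKN2A and MTAP, P12-ICHIKAWA matched RPMI-8402, and copy number was not tested here either. CDKN2A, which encodes the cell cycle inhibitors p16 and p14ARF, stood at 2.28, 2.23 and 2.28 in P12-ICHIKAWA, against 10.06 ± 0.19 in TALL-1, 11.10 ± 0.13 in SUPT11 and 2.28 in RPMI-8402. Its neighbour MTAP, a methionine salvage enzyme, was at the floor in P12-ICHIKAWA, at 10.35 in TALL-1, 9.63 in SUPT11 and 2.18 in RPMI-8402. CDKN2B, which lies beside them, was uneven across the P12-ICHIKAWA arrays (7.07, 2.55 and 3.91). Its difference from the mean was 1.38 and was not called (limma adjusted p = 0.118), but it was called in the fit to all 24 arrays (limma adjusted p = 0.0322) and without P12-ICHIKAWA replicate 2 (2.36, limma adjusted p = 0.0118), and it was 0.10 without replicate 1.

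Beyond CD1, RAG and LMO2, the genes highest in P12-ICHIKAWA included members of the B lineage. IGLL1, a surrogate light chain of the pre-B cell receptor, stood at 11.88, 11.89 and 11.86 in P12-ICHIKAWA, against 2.20 in TALL-1, 2.18 to 2.20 in SUPT11 and 2.82 to 3.21 in RPMI-8402 (difference 9.40 ± 0.068). CD79A, a signalling chain of the B cell receptor, stood at 7.92, 8.16 and 8.22 in P12-ICHIKAWA and at 2.18 to 2.20 on the 9 other arrays. CD79B, its partner chain, averaged 5.46 in P12-ICHIKAWA, 2.35 in TALL-1, 4.86 in SUPT11 and 5.30 in RPMI-8402, and was called against TALL-1 alone. The other 7 B cell markers with a probe set were too low to test and reached at most 2.23 on a P12-ICHIKAWA array, among them PAX5, MS4A1 and BLNK, which define B cells. The array mean over the whole list was 4.06 to 4.09 in P12-ICHIKAWA, 2.20 to 2.21 in TALL-1, 2.44 to 2.47 in SUPT11 and 2.63 to 2.82 in RPMI-8402.

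The other 10 genes with the largest higher differences belonged to no single list. PSMA8, a germ cell proteasome subunit, averaged 11.12 ± 0.043 in P12-ICHIKAWA and lay at the floor elsewhere, and RUBCNL, an autophagy factor, averaged 10.69 ± 0.066 against 2.18 to 2.41 in the other lines. TIMP1, a metalloproteinase inhibitor, averaged 10.34 ± 0.076 against 2.18 in TALL-1, 2.18 in SUPT11 and 2.59 in RPMI-8402. PDE4A, a cyclic AMP phosphodiesterase, and TENM1, a teneurin, averaged 10.06 and 9.86 in P12-ICHIKAWA and at most 2.25 elsewhere. The other lines thus lay at or near the floor for these 5 genes. POU3F2, a neural POU factor, PTPRG, a receptor phosphatase, RHEX, a regulator of erythroid expansion, and LINC02910, a noncoding RNA, had RPMI-8402 as the next line. They averaged 12.90, 12.60, 12.31 and 11.22 in P12-ICHIKAWA and 7.80, 10.20, 8.12 and 6.76 in RPMI-8402. LAMP3, a lysosomal membrane protein of dendritic cells, averaged 12.35 ± 0.18 in P12-ICHIKAWA and 8.61 ± 0.17 in SUPT11, with TALL-1 and RPMI-8402 at the floor. All 30 genes of the plot of the largest differences were called against each line, by construction.

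The genes furthest below the other lines were taken from those apart from all 3, so each was called lower against every line by construction. LITAF, an endosomal protein induced by lipopolysaccharide, stood at 3.04 on all 3 P12-ICHIKAWA arrays, against 13.60 ± 0.036 in TALL-1, 14.74 ± 0.028 in SUPT11 and 12.51 ± 0.17 in RPMI-8402 (difference -10.58 ± 0.06; limma adjusted p = 7.58e-16). ANXA2, a calcium-dependent membrane-binding annexin, stood at 2.42, 2.58 and 2.43, against 10.66 ± 0.20 in TALL-1, 14.43 ± 0.048 in SUPT11 and 12.61 ± 0.023 in RPMI-8402, and all 4 of its probe sets differed the same way by more than 1. POGLUT3, an enzyme that adds glucose to EGF repeats of proteins such as Notch, stood at 3.15 in P12-ICHIKAWA and at 13.17, 12.19 and 12.88 in TALL-1, SUPT11 and RPMI-8402. KLF3, a Kruppel-like repressor, was at the floor in P12-ICHIKAWA and averaged 10.53 in TALL-1, 12.89 in SUPT11 and 11.25 in RPMI-8402. That no P12-ICHIKAWA array reached an array of another line for any of these also follows from the rule.

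The remaining ones lower by 8.71 to 9.36 had varied roles. SPART, a lipid droplet protein, LRIF1, a binder of heterochromatin protein HP1, SYT11, a synaptotagmin, ACTN1, an actin crosslinker, SNX19, a sorting nexin, TMEM64, a membrane protein, and GALNT1, which starts O-linked glycans, averaged at most 3.91 in P12-ICHIKAWA and at least 8.13 in each other line. SERPINB1, an inhibitor of neutrophil proteases, averaged 2.38 in P12-ICHIKAWA and 9.51, 10.24 and 14.19 in TALL-1, SUPT11 and RPMI-8402. Its relative SERPINB9, which blocks granzyme B, averaged 2.21 in P12-ICHIKAWA and 10.52, 9.21 and 12.88 there. The zinc finger genes ZNF585A and ZNF615 were at the floor in P12-ICHIKAWA and at 10.61 to 11.61 in the other lines. Genes with a ZNF symbol were counted after this was seen. Of 384 tested, 21 were apart and lower (5.47%, against 2.71% of all genes) and 3 apart and higher (0.781%, against 2.52%).

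**Figure D3:**
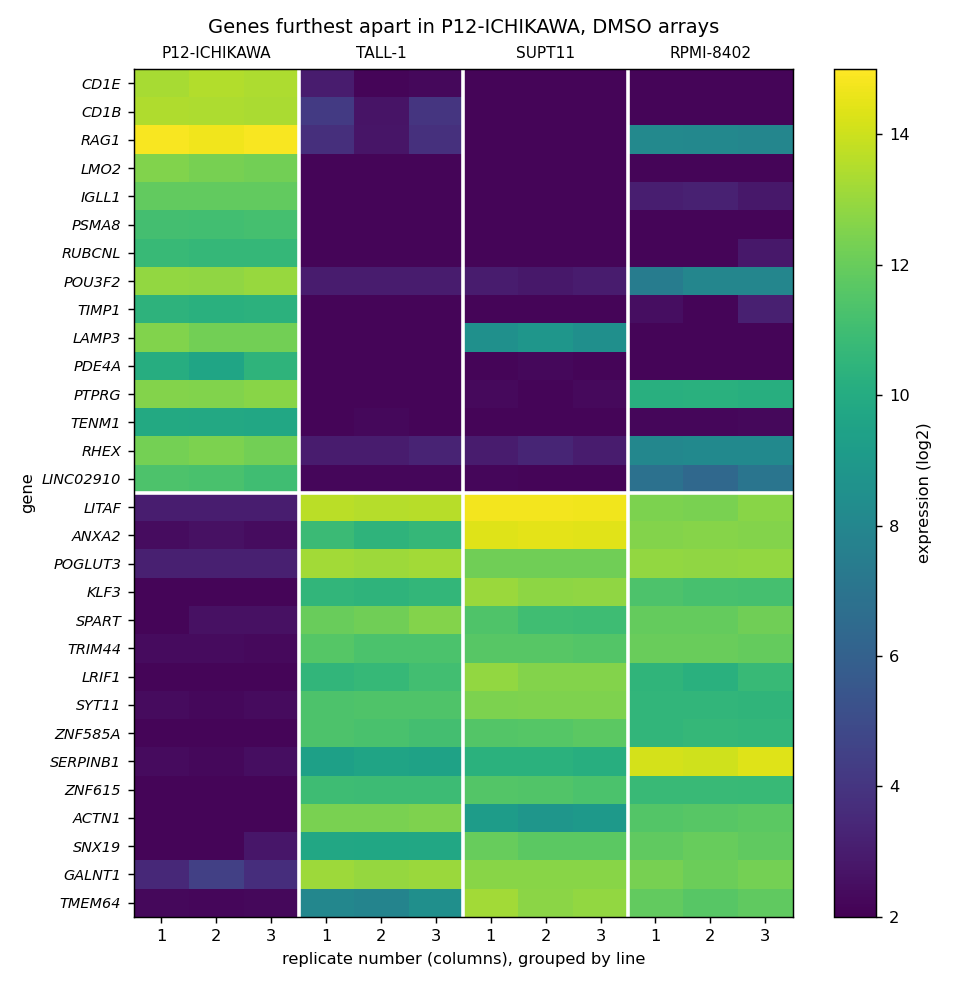
Log2 expression, as colour, of the 15 genes furthest above and the 15 furthest below the mean of the other lines, among those apart from all 3, on each DMSO array. In the upper block P12-ICHIKAWA is the brightest line for every gene and in the lower block the darkest, with a second line at intermediate level for RAG1, POU3F2, LAMP3, PTPRG, RHEX and LINC02910.

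An all-or-none pattern was counted with fixed limits, log2 8 or more on all 3 arrays of a line and below 4 on the 9 others, or the reverse. P12-ICHIKAWA alone was high for 20 genes (0.192% of those tested) and alone low for 32 (0.306%). By comparison, TALL-1 had 26 and 107, SUPT11 162 and 78, and RPMI-8402 100 and 18. Besides genes already named, the 20 held FAS, the death receptor, at 9.68, 9.85 and 9.83 in P12-ICHIKAWA against 2.28 ± 0.086 in TALL-1, 3.61 ± 0.055 in SUPT11 and 2.5 ± 0.28 in RPMI-8402. They also held SPINK2, a serine protease inhibitor (8.34), the nuclear receptor RORB (9.09), NDFIP2, an adaptor of NEDD4 ubiquitin ligases (8.99), KLHL29 (9.06), PLEKHG1 (9.32), PRSS2 (8.98), ATP6V1G2 (8.44) and the noncoding RNA BALR6 (9.61), as means in P12-ICHIKAWA. Among the 32, FOXO1, a forkhead factor that promotes IL7R in T cells, stood at 2.59, 2.53 and 2.44 in P12-ICHIKAWA, against 9.71 in TALL-1, 13.00 in SUPT11 and 9.44 in RPMI-8402. PEA15, a death effector domain protein, averaged 3.36 in P12-ICHIKAWA and 10.66, 9.79 and 10.08 in TALL-1, SUPT11 and RPMI-8402, and NFKBIZ, an atypical nuclear member of the I-kappa-B family, averaged 2.78 in P12-ICHIKAWA and 9.80, 9.47 and 11.41 there.

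Promoter windows were read for CG pairs, the bases at which mammalian DNA is methylated, in the genes seen only in P12-ICHIKAWA and in those missing only there. RefSeq windows (300 bases, mostly before the gene's start, GRCh38.p14) were at hand for 19 of the 20 and 28 of the 32. The median was 15 CG for the genes seen only in P12-ICHIKAWA, 28 for the genes missing only there and 26 over 8643 tested genes with a window. Windows with fewer than 10 CG made up 42.1% of the first set, 14.3% of the second and 10.6% over all. In the corresponding sets of other lines the share was 31.6% of the genes seen only in TALL-1 and 9.3% of those missing only there, 26% and 29.8% for SUPT11, and 24.7% and 17.6% for RPMI-8402. In each of the 4 lines, the genes seen only there thus had a larger share under 10 CG than all genes had. The low share of CG was not particular to P12-ICHIKAWA. SUPT11 had a median of 23 CG in both of its sets, below the 26 over all. No test was made of these values. As examples, 2 windows of each kind follow 5′ to 3′ on the strand of the gene, with CG in capitals. These 4 lie further apart in CG than the medians of their sets. Among other genes seen only in P12-ICHIKAWA, PSMA8 had 25 CG, CD1C 1 and RAG2 0. Among those missing only there, TRIM44 had 17 CG and the LITAF windows 9, 33 and 41. CD1E lies at chr1:158353644-158353943 (plus strand, 4 CG), IGLL1 at chr22:23580241-23580540 (minus strand, 2 CG), ANXA2 at chr15:60397937-60398236 (minus strand, 32 CG) and POGLUT3 at chr11:108498335-108498634 (minus strand, 40 CG).
CD1E: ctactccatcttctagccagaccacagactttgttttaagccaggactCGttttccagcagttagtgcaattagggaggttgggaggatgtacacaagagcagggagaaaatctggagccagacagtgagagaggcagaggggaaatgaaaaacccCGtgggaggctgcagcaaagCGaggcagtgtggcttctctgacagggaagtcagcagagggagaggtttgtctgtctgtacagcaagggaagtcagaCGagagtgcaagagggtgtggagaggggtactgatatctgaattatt
IGLL1: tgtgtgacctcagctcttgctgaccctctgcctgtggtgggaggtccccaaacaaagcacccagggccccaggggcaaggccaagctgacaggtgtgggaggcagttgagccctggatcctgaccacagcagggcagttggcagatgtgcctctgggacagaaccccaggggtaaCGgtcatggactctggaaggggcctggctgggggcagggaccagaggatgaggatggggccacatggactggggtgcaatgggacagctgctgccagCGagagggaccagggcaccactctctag
ANXA2: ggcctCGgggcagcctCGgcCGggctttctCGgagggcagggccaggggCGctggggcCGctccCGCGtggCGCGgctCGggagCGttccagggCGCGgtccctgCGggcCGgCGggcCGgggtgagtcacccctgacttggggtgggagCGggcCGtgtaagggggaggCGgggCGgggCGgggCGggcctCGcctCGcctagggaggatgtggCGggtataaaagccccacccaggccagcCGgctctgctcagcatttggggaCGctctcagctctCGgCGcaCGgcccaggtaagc
POGLUT3: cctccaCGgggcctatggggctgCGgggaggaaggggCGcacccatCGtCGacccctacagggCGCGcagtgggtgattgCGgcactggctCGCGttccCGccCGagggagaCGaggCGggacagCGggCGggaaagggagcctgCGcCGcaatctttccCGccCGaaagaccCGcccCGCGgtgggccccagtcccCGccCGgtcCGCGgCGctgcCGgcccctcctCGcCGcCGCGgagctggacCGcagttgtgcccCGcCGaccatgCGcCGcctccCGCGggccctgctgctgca
On both strands, the E-box CANNTG occurred 6 times in the IGLL1 window, once in each of the ANXA2 and POGLUT3 windows and not in that of CD1E, and 68.7% of all 35116 windows held it. The RUNX motif TGTGGT occurred 2 times for IGLL1 and 1 time for CD1E and in 13.1% of all windows, GATA occurred 2 times for CD1E and in 49.7% of all, and the RBPJ motif TGGGAA was in none of the 4 and in 24% of all. Matches may share bases with one another.

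Among surface molecules of T cells, the direction of most calls depended on the line. Of 20 tested, 11 were called higher than the mean and 4 lower, and of 16 genes of proximal T cell receptor signalling, 5 were higher and 1 lower (11.0% and 15.5% of all genes). Line by line, the surface molecules higher and lower numbered 9 and 4 against TALL-1, 6 and 9 against SUPT11 and 11 and 3 against RPMI-8402. The shares of all genes higher and lower were 13.3% and 12.7%, 16.7% and 19.0%, and 9.36% and 12.8% in that order. Only 3 surface molecules were apart from all lines. CD8B, the beta chain of the CD8 coreceptor, stood at 8.25, 8.56 and 8.37 in P12-ICHIKAWA, against 5.63, 3.32 and 4.01 in TALL-1 and 2.18 in both others. CD8A, the alpha chain, averaged 5.11 ± 0.84 in P12-ICHIKAWA and 11.98 ± 0.052 in TALL-1, 2.18 in SUPT11 and 2.88 ± 1.2 in RPMI-8402, where replicate 3 alone was above the floor at 4.26. Hence TALL-1 had the alpha chain at a higher level and P12-ICHIKAWA the beta chain. CD2 and CD44 were the other 2, both lower as given above.

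Most other calls among surface and signalling genes came from 1 or 2 lines. SLAMF6, a SLAM family receptor, averaged 10.36 in P12-ICHIKAWA, 2.24 in TALL-1, 2.18 in SUPT11 and 9.38 in RPMI-8402, and CD48, a SLAM ligand, averaged 12.96, also 12.96 in TALL-1, 2.57 in SUPT11 and 10.21 in RPMI-8402. CD28, the costimulatory receptor, averaged 11.45 in P12-ICHIKAWA and was at the floor in TALL-1 alone, being higher still in SUPT11 (13.49) and RPMI-8402 (12.33). The adaptor SKAP1 averaged 10.76 in P12-ICHIKAWA and 11.06 in SUPT11, with TALL-1 and RPMI-8402 at 2.18. RASGRP1, an activator of RAS, was the signalling gene called lower, at 10.00 in P12-ICHIKAWA, 8.53 in TALL-1, 14.56 in SUPT11 and 11.32 in RPMI-8402. Of 5 tested NK and cytotoxic markers, 3 were called higher than the mean and 2 lower (11.0% and 15.5% of all genes). KLRF1 and NCAM1 were the lower ones. PRF1, perforin, the 1 apart from all lines, stood at 9.16, 9.34 and 9.12 in P12-ICHIKAWA. It lay at the floor on 8 of the 9 other arrays. The exception was RPMI-8402 replicate 3 at 8.64, and the difference from RPMI-8402 was 4.87 ± 1.4 with that array and 7.02 without it.

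Of 20 tested Notch pathway genes, 5 were called higher than the mean and 8 lower (11.0% and 15.5% of all genes), and the median difference was 0.00445. Higher and lower members numbered 3 and 9 against TALL-1, 7 and 4 against SUPT11 and 4 and 7 against RPMI-8402. The shares of all genes were 13.3% and 12.7%, 16.7% and 19.0%, and 9.36% and 12.8% in that order. MYC stood at 13.55, 13.45 and 13.31 in P12-ICHIKAWA, against 11.87 ± 0.21 in TALL-1, 11.93 ± 0.024 in SUPT11 and 11.93 ± 0.075 in RPMI-8402 (difference 1.53 ± 0.083; limma adjusted p = 3.44e-08). It was the 1 member apart and higher. MAML3, a Mastermind coactivator of Notch, was the 1 apart and lower, at 3.20, 3.23 and 3.64 in P12-ICHIKAWA against 9.81 ± 0.10 in TALL-1, 8.51 ± 0.24 in SUPT11 and 9.57 ± 0.16 in RPMI-8402. MAML1 averaged 10.1 in P12-ICHIKAWA and 9.9 to 10.1 elsewhere, and RBPJ 13.7 and 13.5 to 14.1.

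The receptors NOTCH1 and NOTCH3 and the targets HES1 and DTX1 were lowest in SUPT11, while NRARP and HEY1 were high in TALL-1 alone. NOTCH1 averaged 10.75 ± 0.14 in P12-ICHIKAWA, 11.70 ± 0.18 in TALL-1, 2.45 in SUPT11 and 11.95 ± 0.12 in RPMI-8402. NOTCH3 averaged 8.32 ± 0.25 in P12-ICHIKAWA, 14.25 ± 0.075 in TALL-1, 2.18 in SUPT11 and 11.73 ± 0.15 in RPMI-8402, so its call against the mean (-1.07 ± 0.095) joined a difference of 6.14 over SUPT11 with differences of -5.93 from TALL-1 and -3.41 from RPMI-8402. With the mean of all probe sets of a gene, the differences of NOTCH1 and NOTCH3 were 0.99 and -0.53 and were not called, and that of NOTCH3 was also not called without P12-ICHIKAWA replicate 2 (-0.93). The targets HES1 and DTX1 lay below TALL-1 and above SUPT11, at 9.35 and 7.78 in P12-ICHIKAWA, 10.37 and 11.31 in TALL-1, 5.17 and 2.20 in SUPT11, and 11.46 and 5.37 in RPMI-8402. NRARP and HEY1, feedback and effector targets, were at 2.18 and 2.28 in P12-ICHIKAWA, 11.04 and 12.22 in TALL-1, 2.18 and 3.81 in SUPT11, and 2.30 and 2.74 in RPMI-8402. Among the fringe enzymes, which set ligand preference, MFNG was higher than the mean by 2.07 ± 0.17 and LFNG differed by -3.61 ± 0.30. None of the 7 tested genes of gamma-secretase and Notch processing was called against the mean (11.0% and 15.5% of all genes were). ADAM10 differed from the mean by 0.01 and APH1A by -0.14. Against single lines, 1 of the 7 was lower than SUPT11.

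**Figure D4:**
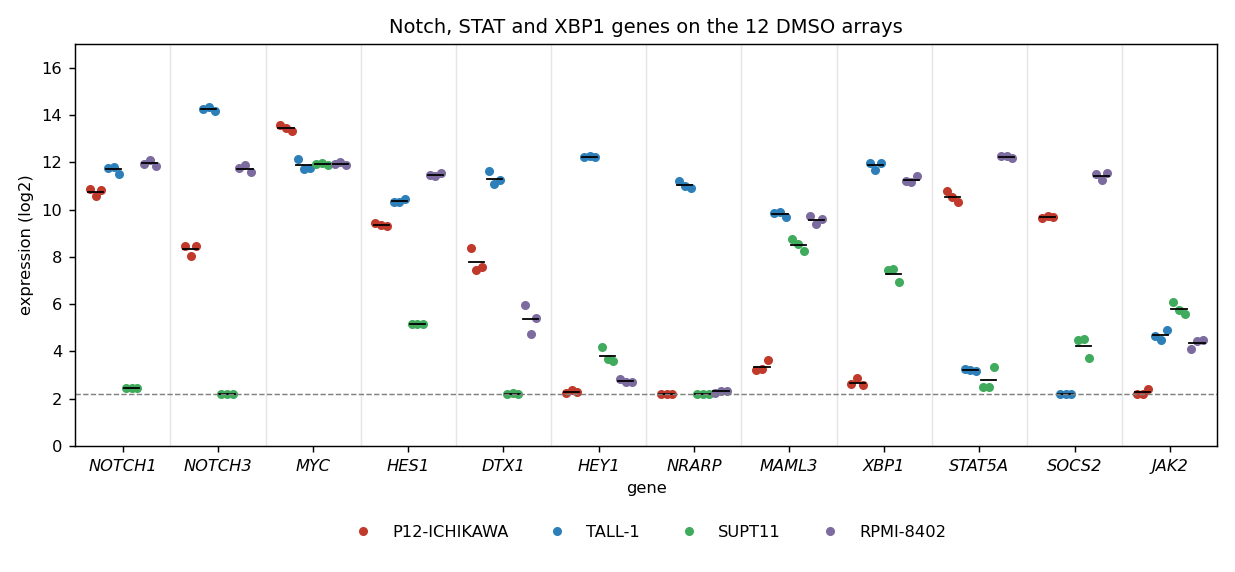
Log2 expression of 12 Notch, STAT and stress genes on the 12 DMSO arrays, with 1 point per array, a bar at each line's mean of 3 arrays and a dashed line at the floor of 2.18. MYC lies highest in P12-ICHIKAWA, MAML3, XBP1 and JAK2 lie lowest there, and STAT5A and SOCS2 are high in P12-ICHIKAWA and RPMI-8402.

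Among cytokine signalling genes, STAT5A and SOCS2 were high in P12-ICHIKAWA and RPMI-8402. STAT5A, a transcription factor downstream of IL7, averaged 10.54 ± 0.24 in P12-ICHIKAWA, against 3.22 ± 0.042 in TALL-1, 2.79 ± 0.49 in SUPT11 and 12.23 ± 0.049 in RPMI-8402. SOCS2, a STAT5 target, averaged 9.68 in P12-ICHIKAWA, 2.18 in TALL-1, 4.24 in SUPT11 and 11.43 in RPMI-8402. Both genes were highest in RPMI-8402, but TALL-1 and SUPT11 stood in opposite order for the 2 genes. A link between STAT5A and SOCS2 was not tested. IL7R stood at 2.53, 3.14 and 2.53 in P12-ICHIKAWA, at 11.46 ± 0.14 in TALL-1, at 2.18 in SUPT11 and at 2.53, 2.92 and 6.97 in RPMI-8402. JAK2 stood at 2.19, 2.21 and 2.39 in P12-ICHIKAWA, below all 9 other arrays (4.11 to 6.09). Over this list of 20, 4 were called higher than the mean and 5 lower (11.0% and 15.5% of all genes). SOCS3, an inhibitor of cytokine receptors, was at the floor in P12-ICHIKAWA and SUPT11 and at 6.05 and 8.75 in TALL-1 and RPMI-8402.

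Of 16 tested chemokine receptors and homing genes, 4 were called higher than the mean and 5 lower (11.0% and 15.5% of all genes). The list held 2 genes apart and higher and 1 apart and lower (2.52% and 2.71% of all genes). CCR9, the chemokine receptor for thymus and gut, stood at 10.22, 10.23 and 10.11 in P12-ICHIKAWA, against 3.54 ± 0.70 in TALL-1, 2.19 in SUPT11 and 8.20 ± 0.15 in RPMI-8402. ITGA4, the alpha 4 integrin chain, averaged 13.69 ± 0.080 in P12-ICHIKAWA, 12.15 ± 0.058 in TALL-1, 2.41 in SUPT11 and 12.05 ± 0.026 in RPMI-8402. ICAM2, an adhesion ligand, was lower than in every line by 1.57 to 2.58. CXCR4, the receptor for CXCL12, averaged 15.81 in P12-ICHIKAWA and 15.70 to 15.91 elsewhere and was not called. Of 17 tested transcription factors of the T lineage, 3 were called higher than the mean and 4 lower (11.0% and 15.5% of all genes), with none apart. ETS2 averaged 13.27 in P12-ICHIKAWA and 13.34 in RPMI-8402, against 9.76 in TALL-1 and 7.97 in SUPT11. KLF2, a factor of quiescence and egress, was at 2.18 in P12-ICHIKAWA, 2.37 in TALL-1, 10.96 in SUPT11 and 6.76 in RPMI-8402.

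XBP1, which drives genes of the response to unfolded protein in the ER, was the stress gene that set P12-ICHIKAWA apart. It stood at 2.60, 2.88 and 2.56 in P12-ICHIKAWA, against 11.97, 11.68 and 11.96 in TALL-1, 7.43, 7.48 and 6.94 in SUPT11, and 11.22, 11.18 and 11.40 in RPMI-8402 (difference -7.46 ± 0.12; limma adjusted p = 1.28e-12). Of 23 tested genes of this response, 2 were called higher and 3 lower than the mean (11.0% and 15.5% of all genes), with a median of 0.071. ATF4 averaged 14.7 in P12-ICHIKAWA and 14.4 to 14.7 elsewhere, and HSPA5, the ER chaperone BiP, averaged 13.4 against 14.2, 13.1 and 13.2 in TALL-1, SUPT11 and RPMI-8402. Zinc importers of the SLC39 family gave no call against the mean among 11 tested (11.0% and 15.5% of all genes). Line by line, 1 was higher than TALL-1, 1 lower than SUPT11 and 1 higher than RPMI-8402. SLC39A7, the ER zinc channel ZIP7, stood at 10.23, 10.04 and 9.72 in P12-ICHIKAWA, against 9.22 ± 0.15 in TALL-1, 9.81 ± 0.012 in SUPT11 and 9.53 ± 0.13 in RPMI-8402 (0.48 ± 0.10, limma adjusted p = 0.00152, short of a difference of 1). Of 13 zinc exporters and metallothioneins, MT2A alone was called against the mean, higher by 1.18. Line by line, 3 were higher than TALL-1 and none lower, 1 higher and 2 lower than SUPT11, and 2 lower than RPMI-8402 and none higher. The shares of all genes higher and lower were 13.3% and 12.7%, 16.7% and 19.0%, and 9.36% and 12.8% in that order. Metallothionein and HLA class I genes have near-identical copies, so which member is read is uncertain.

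BCL2, the inhibitor of apoptosis, averaged 11.96 ± 0.083 in P12-ICHIKAWA, 12.75 ± 0.079 in TALL-1, 2.21 ± 0.032 in SUPT11 and 10.23 ± 0.027 in RPMI-8402. The BCL2 family had 3 of 11 tested members called higher than the mean and none lower (11.0% and 15.5% of all genes), while 2 were lower than TALL-1, 2 than SUPT11 and 1 than RPMI-8402. Of the 3 higher ones, BCL2 and PMAIP1 had values near the floor in SUPT11. The shares of all genes lower than TALL-1, SUPT11 and RPMI-8402 were 12.7%, 19.0% and 12.8%. With the mean of all probe sets the BCL2 difference was 0.70 and that of CCND2 0.34, neither called. CCND2, cyclin D2, averaged 11.56 in P12-ICHIKAWA, 2.18 in TALL-1, 13.93 in SUPT11 and 6.86 in RPMI-8402, but its probe sets disagreed in direction and RPMI-8402 replicate 3 stood at 8.75 against 6.05 and 5.78. CDKN1B, the inhibitor p27, differed from the mean by -1.54. CENPE, a mitotic kinesin, was apart and lower at 10.20 ± 0.073, against 11.32 in TALL-1, 11.24 in SUPT11 and 11.70 in RPMI-8402. It was the only call against the mean among 20 mitotic genes. ORC1, higher by 1.29, was the only call against the mean among 21 replication genes (11.0% and 15.5% of all genes). Against SUPT11, 7 replication genes were higher and none lower, and 2 mitotic genes were higher and 1 lower (16.7% and 19.0% of all genes). Against TALL-1, 1 replication gene was higher and 1 lower, and 1 mitotic gene was lower (13.3% and 12.7%). Against RPMI-8402, no replication gene was called, and 1 mitotic gene was higher and 1 lower (9.36% and 12.8%). PIK3R5, a PI3K regulatory subunit, was apart and higher (9.11 ± 0.40 against 6.38, 7.68 and 2.43 in TALL-1, SUPT11 and RPMI-8402), and PIK3CD, a catalytic subunit, apart and lower (10.49 ± 0.082 against 12.35, 13.84 and 11.61).

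Of 11 tested antigen presentation genes of MHC class I and II, 5 were called higher than the mean and 1 lower (11.0% and 15.5% of all genes). The same counts held against TALL-1 and against SUPT11, but against RPMI-8402 1 was higher and 3 were lower. NLRC5, the transactivator of class I genes, stood at 7.51, 7.06 and 5.91 in P12-ICHIKAWA, against 2.18 in TALL-1 and SUPT11 and 2.70, 4.10 and 5.51 in RPMI-8402. PSMB8, an immunoproteasome subunit, averaged 13.09 in P12-ICHIKAWA, 11.65 in TALL-1, 11.00 in SUPT11 and 12.54 in RPMI-8402. HLA-E, a class I molecule seen by NK receptors, was apart and lower at 11.01 ± 0.095, against 12.19, 13.01 and 12.11 in TALL-1, SUPT11 and RPMI-8402. B2M averaged 14.96 in P12-ICHIKAWA and 14.98 to 15.42 elsewhere. Of 6 tested GIMAP GTPases, which act in lymphocyte survival, 3 were called higher than the mean and 2 lower (11.0% and 15.5% of all genes). They divided by line, with 5 higher than SUPT11 and none lower, 5 lower than RPMI-8402 and none higher, and 2 lower than TALL-1 and none higher. Among all genes, 13.3% were higher and 12.7% lower than TALL-1, 16.7% and 19.0% than SUPT11, and 9.36% and 12.8% than RPMI-8402. GIMAP6 averaged 12.17 in P12-ICHIKAWA, 12.34 in TALL-1, 2.21 in SUPT11 and 13.27 in RPMI-8402. Against the mean, the remaining lists had 1 higher and 2 lower of 9 glucocorticoid response genes and 3 and 1 of 20 chromatin regulators. Purine salvage had 2 and 3 of 14, cholesterol genes 0 and 1 of 14 and ribosome biogenesis 2 and 0 of 13 (11.0% and 15.5% of all genes). Of the ribosome biogenesis genes, 5 were higher than TALL-1, 5 than SUPT11 and none than RPMI-8402, with none lower. The other lists are given against the mean only. Epithelial and stromal markers had 1 call against the mean among 2 tested, PECAM1, whose probe sets disagreed in direction.

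**Figure D5:**
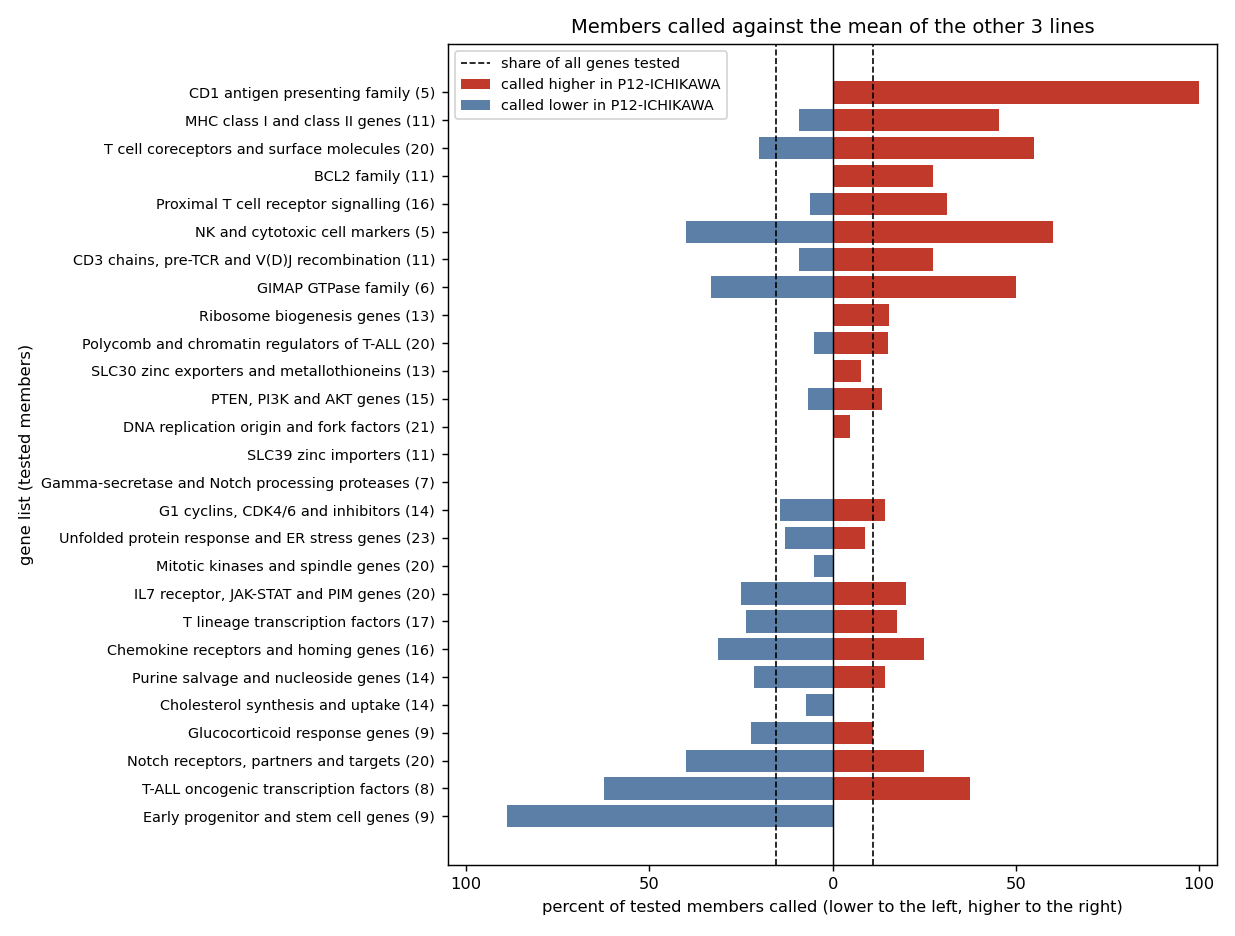
Percent of the tested members of each gene list called higher (right) or lower (left) in P12-ICHIKAWA than the mean of the other 3 lines, with the number tested in brackets and dashed lines at the shares of all genes tested, 11.0% higher and 15.5% lower. All 5 CD1 genes are higher and 8 of 9 early progenitor genes lower, while the SLC39 and gamma-secretase lists have no call. Genes at the floor in P12-ICHIKAWA were tested only through other lines, so they could not be called higher. Genes that passed the filter only through P12-ICHIKAWA, such as CD1E and CD1C, could not be called lower.

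Each other line also differed from P12-ICHIKAWA in genes not called in the same direction against the remaining lines. A gene counted this way could be called the opposite way against a remaining line. Genes called against TALL-1 and against neither other line in that direction numbered 599 higher (5.74%) and 489 lower (4.68%). The largest were CLIC4, ITPRID2, PKP4, PSAT1, an enzyme of serine synthesis, and YBX3, each at 12.99 to 13.59 in P12-ICHIKAWA and 2.18 to 2.37 in TALL-1 (some probe sets of PKP4 went the other way). The lower ones were CPA4, IL7R, NRARP, TSHZ3 and MAF, a transcription factor, which were at 2.18 to 2.73 in P12-ICHIKAWA and 11.04 to 12.48 in TALL-1. Against SUPT11 alone there were 959 higher (9.18%) and 1112 lower (10.6%). ARID1A, a chromatin remodeller subunit, CDK6, a G1 kinase, GLUL, glutamine synthetase, SH2D1A, a SLAM adaptor, and TIMP2 averaged 13.48 to 15.21 in P12-ICHIKAWA and 2.18 to 3.37 in SUPT11. BEX2, PTGDS, TES, TSPYL5 and UCHL1, a deubiquitinase, were at the floor in P12-ICHIKAWA and at 13.38 to 14.06 in SUPT11.

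Against RPMI-8402 alone, 343 genes were higher (3.28%) and 534 lower (5.11%). H3C3, a histone gene with near-identical copies, P2RY10, PEBP1, UBLCP1 and HCLS1, a lymphocyte cytoskeletal adaptor, averaged 11.89 to 13.81 in P12-ICHIKAWA and 2.31 to 4.36 in RPMI-8402. HCLS1 was at 3.20 and 2.60 on RPMI-8402 replicates 1 and 2 and at 7.27 on replicate 3, and its difference was 8.27 with that array and 9.73 without it. TES likewise stood at 8.62 on RPMI-8402 replicate 3 and at the floor on its sister arrays. The genes lower than RPMI-8402 alone were ATP9A, L1TD1, LIMCH1, ERG, a stem cell ETS factor, and MME, the CD10 antigen, at 2.18 to 2.22 in P12-ICHIKAWA and 12.92 to 13.60 in RPMI-8402.

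The line differences were also read on the 12 NVS-ZP7-3 arrays, which the comparison above did not use. There 1218 genes were higher in P12-ICHIKAWA than the mean of the other lines (11.7%) and 1604 lower (15.4%). Of the genes apart from all lines under DMSO, 261 of 263 and 281 of 283 were called in the same direction under NVS-ZP7-3. CD1E averaged 10.51 ± 0.11 above the other lines under NVS-ZP7-3, CD1B 10.71 ± 0.32 and LMO2 9.99 ± 0.22 (SE), next to 11.11, 10.74 and 10.19 under DMSO. TALL-1 and SUPT11 NVS-ZP7-3 replicate 2 stood apart from their sister arrays, with 21 and 15 genes at least 2 above both and RAG1 at 9.15 and 9.28. The RAG1 difference under NVS-ZP7-3 was 9.11 ± 1.4. Without these 2 arrays, an alternative chosen after seeing the data, 1230 genes were higher and 1610 lower, and 261 and 279 of the genes apart kept their call.

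The difference between lines changed with treatment for few genes. In the fit to all 24 arrays, the line difference under NVS-ZP7-3 minus that under DMSO was called higher for 58 genes (0.555%) and lower for 53 (0.508%). Of the 30 genes with the largest differences, KLF3 and TMEM64 passed the adjusted p alone, with changes of -0.39 and 0.65. XBP1 was 7.46 below the other lines under DMSO and 5.85 below them under NVS-ZP7-3, where it averaged 5.82 in P12-ICHIKAWA.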

How the data were processed

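RNA of 24 samples of 4 T-ALL lines had been measured on Affymetrix 3′ arrays, per the labels. The deposited log2 values were made by the authors, whose processing notes name GCRMA and limma without versions. Of 54675 probe sets, 41097 had 1 gene in the platform annotation, 1801 had several and 11777 none. Symbols were updated by identifier to RefSeq GRCh38.p14 for 41043 of those with 1 gene. Per array, 52.4% to 53.9% of probe sets were at the floor or less than 0.1 above it. The number of arrays limits the precision.

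The brightest single-gene probe set stood for each of 19775 genes, and the 10442 genes at log2 4 or more on at least 3 of the 12 DMSO arrays were tested. Group means of the 4 lines were fitted with limma 3.58.1 in R 4.3.3 (lmFit, eBayes, 8 residual degrees of freedom, Benjamini-Hochberg adjustment). The interaction used all 24 arrays. Tables and figures were made in Python 3.11.15 with pandas 2.3.3, numpy 2.4.6 and matplotlib 3.10.9, and the fit was tested on simulated data.

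Genes were named by rule: the 15 largest differences each way among genes apart from all lines (mean log2 6 or more), the 5 largest each way against 1 line alone, and up to 6 members of each list plus those apart. The all-or-none genes, the neighbours of LMO2, CDKN2A and MTAP, the zinc finger count and list members outside the rule were chosen after their values were seen. The comparison, its markers and the gene lists were chosen with earlier results of these data known. Replicate numbers did not pair the samples: 5 of 18 correlations of deviations were over 0.1 (range -0.356 to 0.21). Alternatives were the arrays fitted, filter, probe set rule, normalization, replicate block, variance model, threshold and each array left out.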

Additional observations from a re-analysis of the deposited data

Results flagged for a closer look

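For 16 genes shown in the results or in their lists, the difference between P12-ICHIKAWA and the mean of the other lines was not the same under NVS-ZP7-3 and under DMSO, by limma's interaction test in the fit to all 24 arrays (adjusted p below 0.05). Each change is the line difference under NVS-ZP7-3 minus that under DMSO, in log2 units. All but KLF3 and TMEM64 changed by at least 1, and list genes with smaller changes are not given here. The Notch receptor NOTCH3 changed by -2.16 (limma adjusted p = 1.49e-07), with line differences of -3.23 under NVS-ZP7-3 and -1.07 under DMSO. The Notch target DTX1 changed by -2.32, with line differences of -0.83 under NVS-ZP7-3 and 1.49 under DMSO, so its sign differed. HEY1 changed by 1.13 and HES4 by 1.09.

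SLC39A7, which encodes the zinc channel ZIP7, changed by -1.07 (limma adjusted p = 1.13e-05), with line differences of -0.59 under NVS-ZP7-3 and 0.48 under DMSO. XBP1 changed by 1.61, CHAC1, a glutathione-degrading stress gene, by -1.47, and SESN2, a sestrin, by -1.002. Among T cell surface genes, CD2 changed by 1.46 and LY9 by 2.39. The others were TSC22D3, the glucocorticoid-induced leucine zipper, at -1.37, DHCR7, a cholesterol enzyme, at -1.04, GIMAP8 at 1.25, FJX1 at 1.30, KLF3 at -0.39 and TMEM64 at 0.65. KLF3 and FJX1 are at the floor in P12-ICHIKAWA under DMSO, and CD2 and HEY1 are near it. The share of each line in the changes of these genes was not tested. A fit with fewer arrays is given next for KLF3 and TMEM64 only. Without TALL-1 and SUPT11 NVS-ZP7-3 replicate 2 and RPMI-8402 DMSO replicate 3, a setting chosen after seeing the data, KLF3 was at -0.37 and TMEM64 at 0.71, and 66 genes in all were called higher and 55 lower.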

How the results depend on the processing

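Of the 25 settings tried, 12 left out 1 array each. No named gene called against the mean changed the sign of that difference in the settings that give it. The balance of higher against lower calls did turn with the scaling. Quantile normalization gave 1215 higher and 1472 lower than TALL-1, 2085 and 1753 than SUPT11, 1361 and 1168 than RPMI-8402, and 283 and 240 apart, each with the larger count on the other side than as deposited. Median centring gave 1342 and 1390 than TALL-1, also turned, and 1859 and 1874 than SUPT11. Neither moved the median difference of all genes beyond 0.0756. The threshold on the difference moved the counts most, by its construction. With no limit on the difference, 3843 genes were higher and 3857 lower than the mean of the other lines, 3774 and 3371 than TALL-1, 3766 and 4162 than SUPT11, 3230 and 3244 than RPMI-8402, and 991 and 954 were apart from all lines. With a log2 difference of at least 2, the counts were 582 and 781, 738 and 610, 848 and 1162, 437 and 771, and 146 and 132 in the same order. Testing against a log2 difference of 1 with limma's treat left 633 genes higher than RPMI-8402. Leaving out 1 array gave 1093 to 1210 higher and 1574 to 1639 lower than the mean, 1314 to 1462 and 1274 to 1373 than TALL-1, 1713 to 1792 and 1957 to 2019 than SUPT11, 945 to 987 and 1309 to 1359 than RPMI-8402, and 255 to 276 and 274 to 299 apart. The replicate block gave 1148 and 1612, 1393 and 1321, 1742 and 1982, 975 and 1340, and 263 and 283. Fitting only the arrays compared gives nothing new for the mean, which uses all 12.

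With the mean of all probe sets, calls were lost for ATF3, BCL2, CCND2, CREB3L2, JARID2, MEIS1, NOTCH1, NOTCH3, PECAM1, PES1, TAP2 and TET2, and the cause was not tested. Probe sets of CCND2, PECAM1 and PKP4 differ in direction. Signal near the floor limits the size of every all-or-none difference.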
